A study of Schmidtea mediterranea with 171 samples.

Results

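The 111 transcripts described here were read in nearly all of 96 single cells sorted from planarian heads through the X1 gate, which holds mostly stem cells. They were chosen by the raw counts alone: of the 67983 transcripts counted, 115 had at least 1 read in 90 or more of the 96 single X1 cells, and 4 of these that carry a gene name in the study (Smed-Ybp2-2, alpha-tubulin, piwi-2 and Smed-IMTP-1) were left out. Detection in X1 cells and the X1 read counts therefore chose the members, and all X1 values below are a description. Of the 111, 38 were read in all 96 X1 cells, 20 in 95, 7 in 94, 12 in 93, 11 in 92, 12 in 91 and 11 in 90. The files do not pair these identifiers of the SmedASXL assembly with gene names, so the transcripts are given by identifier and no role is assigned to them. Of 28 names in the study's list of markers 6 could not be paired with a transcript, so the 111 may still hold a transcript that the study names.

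The study sorted cells from amputated heads of wildtype asexual *Schmidtea mediterranea*, clonal strain CIW4, and no other treatment is labelled for any group. The submitters state that 30 animals were pooled and had been starved for 1 week. Hoechst staining separated the X1 gate, cells with replicated DNA, from the X2 gate, cells with less DNA. Libraries were made with SmartSeq2 for 96 single X1 cells, 72 single X2 cells, 2 tubes of 200 X1 cells and 1 tube of 200 X2 cells. Which animal or sort a cell came from is not labelled, so cells are not replicates of a gate, each gate is 1 sample, and no p-value is given. Values are described by the range, the SD and the coefficient of variation (CV, the SD divided by the mean) over cells, and the tubes by their counts.

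Planarians replace all of their tissues from neoblasts, adult stem cells that are the only dividing somatic cells of the animal. The X1 gate is made up largely of neoblasts in S, G2 and M phase, whereas the X2 gate holds their early post-mitotic progeny together with neoblasts that have not yet replicated their DNA. Transcripts found in nearly every cell of an animal commonly serve translation, energy supply, protein turnover and the cytoskeleton, and such housekeeping transcripts often set the scale on which single cells are compared. SmartSeq2 copies polyadenylated RNA into full-length cDNA and amplifies it by PCR, so a single abundant RNA can take much of a library.

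Single X1 cells had 0.813 to 20.2 M reads (M, 1000000 reads) assigned to a transcript (median 3.18 M), single X2 cells 0.550 to 4.80 M (median 2.7 M), and the tubes 10.7 to 18.4 M. Reads assigned to no transcript made up 7.51 to 65.0% of all reads in X1 cells, 19.6 to 87.8% in X2 cells and 6.14 to 11.3% in the tubes. The median number of transcripts read was 5040 in X1 cells and 1894 in X2 cells. The neoblast gene piwi-1 was read in 88 of 96 X1 and 70 of 72 X2 cells, and piwi-2 in all of both. The neuronal genes pc2 and synapsin were read in 65 and 31 X1 cells and in 32 and 9 X2 cells. The neuronal gene chat went the other way as a share of cells, with 60 X1 cells (62.5%) and 58 X2 cells (80.6%). All levels below are counts per 1000000 assigned reads (CPM), or percent of assigned reads, of whole transcripts and not per length, so an order of transcripts is an order of read shares.

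Most reads that were assigned to a transcript lay on these 111. They took 70.7 to 99.0% of the assigned reads of an X1 cell (median 89.5%), 16.6 to 94.6% of those of an X2 cell (median 84.1%), and 87.6%, 89.3% and 89.0% in X1 tube 1, X1 tube 2 and the X2 tube. The gates overlapped between 70.7 and 94.6%, and the low end came from X2 cells 36 and 44, the only cells under 50%. Cells are numbered here and below as in the sample titles. For X2 cells these numbers differ from those of the deposited count columns. As a share of all reads, unassigned ones included, the median was 73.0% in X1 cells (28.9 to 90.1%) and 50.2% in X2 cells (7.46 to 73.9%). Most of it was carried by 3 transcripts, chosen after their values were seen: SmedASXL_012104, SmedASXL_078927 and SmedASXL_018222 together held 67.9 to 97.0% of the reads of an X1 cell (median 85.9%), 11.4 to 91.3% in X2 cells (median 77.1%) and 84.4 to 86.1% in the tubes. The other 108 shared a median of 3.29% of the reads of an X1 cell and 5.99% of those of an X2 cell.

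SmedASXL_012104 was the most read transcript and the steadiest. In X1 cells its share of assigned reads had a minimum of 46.6%, a median of 70.3% and a maximum of 86.9% (mean 70.3% ± 7.35, SD over 96 cells, CV 0.10). In X2 cells it had a minimum of 10.1%, a median of 64.7% and a maximum of 80.5% (mean 59.0% ± 15.3, SD over 72 cells, CV 0.26). The cells of both gates overlapped, and all 3 tubes, at 74.1%, 77.0% and 75.6%, lay above both medians and within the range of both gates.

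SmedASXL_078927 took 1.4 to 36.2% of the reads of an X1 cell (median 11.4%) and 0.126 to 29.4% of those of an X2 cell (median 9.59%), with 8.84%, 6.22% and 8.00% in the tubes. It moved far more between cells than SmedASXL_012104 did, with a CV of 0.51 in X1 cells and 0.54 in X2 cells, and the gates overlapped. SmedASXL_018222 took 0.624 to 4.41% in X1 cells (median 2.8%) and 0.274 to 4.25% in X2 cells (median 3.36%), with 1.4%, 2.8% and 2.4% in the tubes. Its CV of 0.34 in X1 cells was the second lowest of the 111, its gates overlapped as well, and its X1 tubes differed from each other by more than the X2 tube differed from X1 tube 2.

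**Figure D1:**
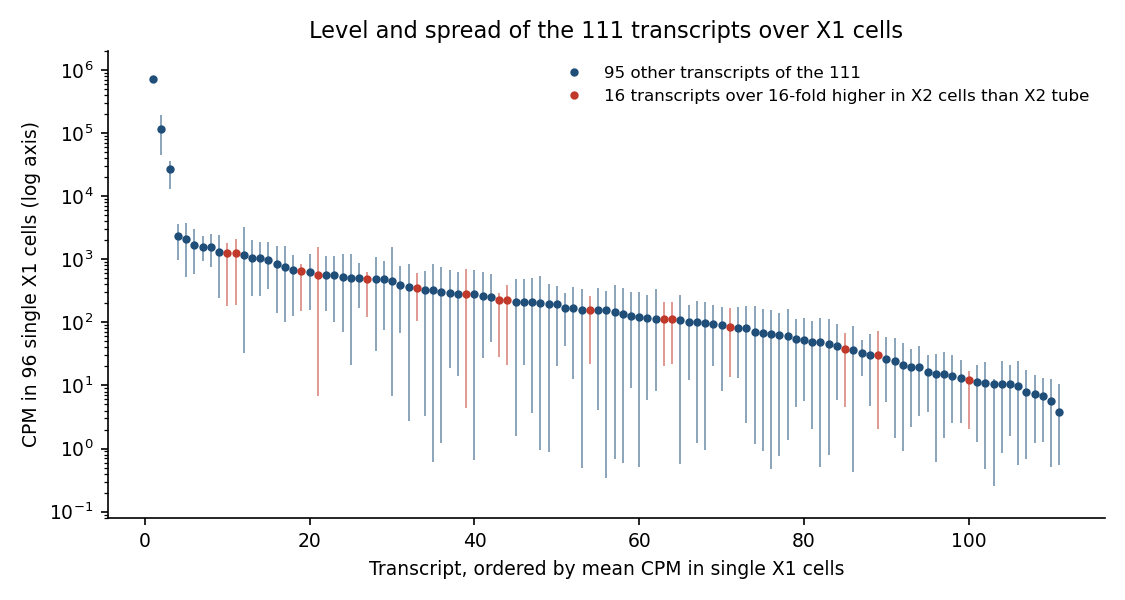
Each point is the mean CPM of 1 of the 111 transcripts over 96 single X1 cells, on a log axis and in order of that mean, and each line runs from the 10th to the 90th percentile of the cells (values under 0.1 drawn at 0.1). After the 3 leading transcripts the means run down without a gap to 3.77 CPM, and the red points mark 16 transcripts that were over 16-fold higher in single X2 cells than in the X2 tube.

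Being read in nearly all X1 cells did not make a transcript even between cells. The CV of CPM over X1 cells ran from 0.10 to 4.43 (median 1.1), and 67 of the 111 had a CV over 1 and 14 a CV over 2, while 5 lay under 0.5. At more than 100 CPM, the 66 members had a median CV of 1.05, and the 42 transcripts of that level outside the set, which were read in a median of 80 X1 cells, had 1.8. Since a zero in a cell raises the CV, this contrast is partly fixed by the choice of the members.

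The highest CV belonged to SmedASXL_078091. It was read in 90 X1 cells, at 0 to 458 CPM with a median of 3.19 CPM (mean 10.7 ± 47.5, SD over 96 cells), so that its spread was set by few cells far above the median. In X2 cells it ranged from 0 to 418 CPM with a median of 0, and 34 of 72 cells had a read. The tubes lay under the X1 mean, at 9.83, 5.25 and 3.46 CPM.

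In the authors' normalized table, whose rows are sorted by variation over all 168 single cells, the 111 stood at a median position of 5571, the first at 383 and the last at 16575. Of the 111, 8 were among the 1000 most variable transcripts, which the study used to group its cells (3 of the red points of the plot of levels and 5 others). The study admitted only transcripts with a mean over 8 normalized counts to these 1000, which all 111 pass, and 15% of the 6645 transcripts that pass were among the 1000, so the members' share of 7.21% was lower. Against all 67983 transcripts, most of which could not enter, the members' share was higher. The X1 cells behind this order are those that the rule used.

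**Figure D2:**
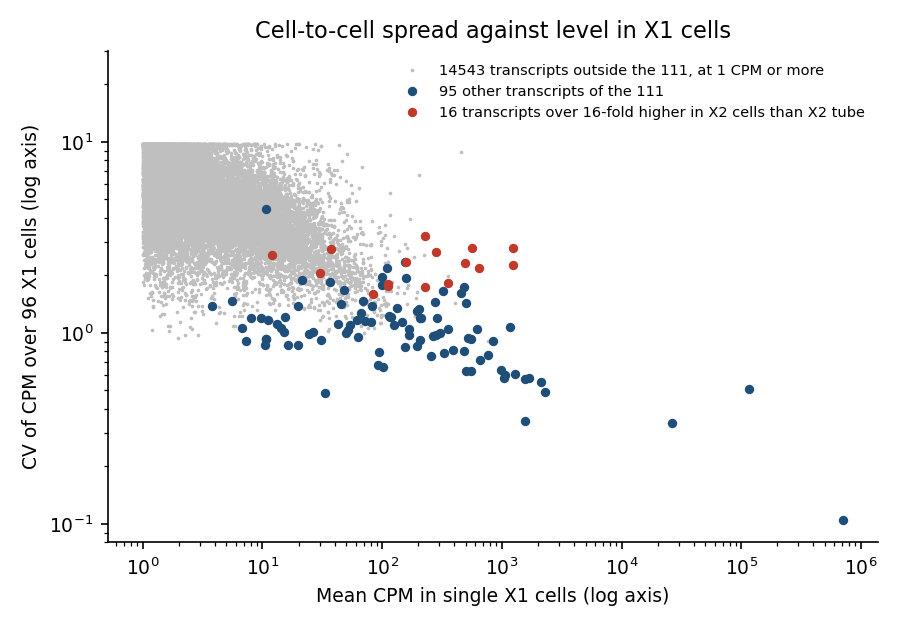
The CV of CPM over 96 single X1 cells is plotted against the mean CPM in those cells, both on log axes, for the 95 (blue) and 16 (red) of the 111 transcripts and for all other transcripts at 1 CPM or more (grey). The 16 red transcripts had a median CV of 2.3 and the 95 blue ones 1.04, and SmedASXL_012104 lies alone at the lower right.

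The gaps in X1 cells were unevenly spread. Of the 10656 pairs of a member and an X1 cell, 240 had no read, and 56 of these fell in X1 cells 7 and 3, where 82 and 84 of the 111 were read. Those 2 cells had 1.8 and 3.1 M assigned reads and read 1685 and 978 transcripts in all. A further group of 4 cells lacked at least 10 members, which made 6 in total, and 43 cells lacked none. All of these 6 had numbers from 1 to 24. X1 cells 1 to 24 read a median of 107 members, against 110 in cells 25 to 48 and 111 in cells 49 to 72 and 73 to 96. Whether this range is a batch is not labelled, and its part in the choice of the members was not tested. An X1 cell read a median of 110 of the 111, an X2 cell 76 to 110 with a median of 97, and each tube all 111.

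Most of the members were also read in most X2 cells. A member was read in a median of 69 of 72 X2 cells (95.8%, exact Clopper-Pearson 95% interval 88.3 to 99.1% for 69 of 72; intervals cover counting error only). In all 72 cells 39 members were read, beside 0.114% of the 54191 transcripts with a read in any X1 cell. At least 90% of X2 cells held 66 of the 111, beside 0.216% of those transcripts, 40 members were read in 50 to 90% of X2 cells, and 5 in fewer than 50%. The 16 transcripts marked red were all read in 72 X2 cells, which their choice for high X2 cells by itself favours. The other 95 had a median of 66 X2 cells, and 23 of them were read in all 72 and 50 in at least 90%. The background shares come mostly from rarely read transcripts and are no measure of what common transcripts do.

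Presence in X2 cells followed presence in X1 cells, within the set and below it. The 38 members read in all 96 X1 cells were read in a median of 72 X2 cells, the 39 read in 93 to 95 in 69, and the 34 read in 90 to 92 in 51.5. Transcripts just under the limit continued the run, with a median of 47 X2 cells for the 77 read in 85 to 89 X1 cells and 41 for the 66 read in 80 to 84. At the limit itself, the 11 members read in 90 X1 cells (mean 10.7 to 326 CPM) were read in 34 to 69 X2 cells, and the 11 transcripts read in 89 (16.3 to 211 CPM) in 43 to 72.

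Detection depended on depth. With every cell thinned to 100000 assigned reads, a member was read in a median of 83 of 96 X1 cells and 44 of 72 X2 cells (61.1%), and 32 members remained at 90% or more of X2 cells. Fewer than 50% of X2 cells then held 38 members, none of them among the 16 marked red, which were chosen for high X2 cells. The tiers were still in the same order after thinning, at 70.5, 44 and 25.5 X2 cells. Less RNA of a transcript in a cell and fewer reads spent on it cannot be told apart here, nor, in the tubes, fewer cells with a transcript from less of it per cell.

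**Figure D3:**
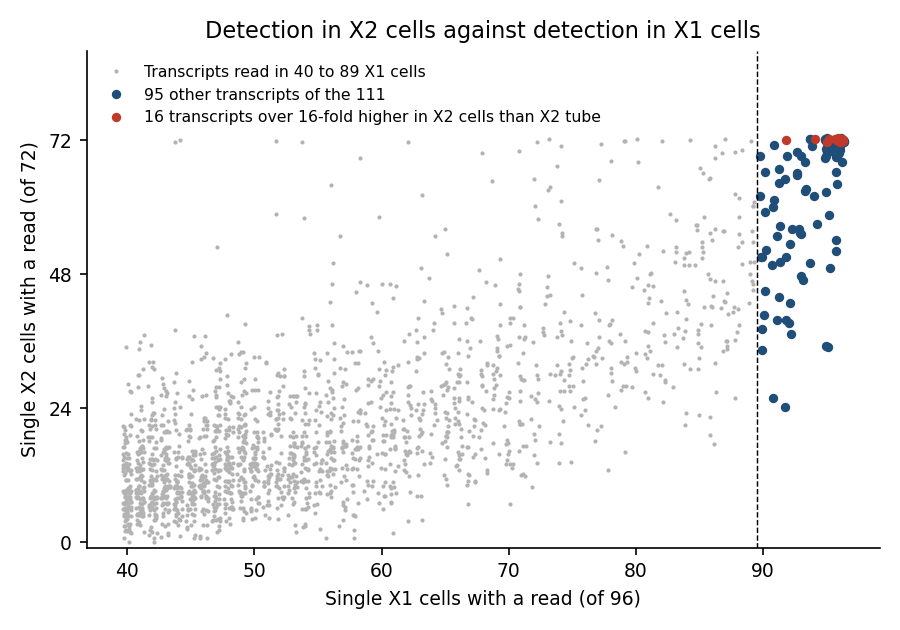
The number of single X2 cells with a read (of 72) is plotted against the number of single X1 cells with a read (of 96) for the 111 transcripts right of the dashed line and for transcripts read in 40 to 89 X1 cells (grey), with points spread by less than 0.5 to separate them. The 16 red transcripts, chosen for high X2 cells, all lie at 72 X2 cells, and the blue ones reach down to 24.

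SmedASXL_013831 and SmedASXL_016338 were read in the fewest X2 cells. SmedASXL_013831 had 0, 66.2 and 659 CPM as minimum, median and maximum of X1 cells, and was read in 92 of them. In X2 cells it had a median of 0 and a maximum of 221 CPM, and was read in 24 of 72 (33.3%, interval 22.7 to 45.4%). The gates overlapped, and X2 cells were lower both in the number of cells with a read and in the highest level reached.

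In the tubes SmedASXL_013831 stood at 146 and 83.5 CPM for X1 and 29.5 CPM for X2, so the X2 tube lay under both X1 tubes. Its log2 ratio of X2 to X1 was -3.13 for the mean of single cells (119 and 12.7 CPM) and -1.93 in the tubes, in both cases with 1 CPM added to each level. SmedASXL_016338 was read in 91 X1 cells (0, 22.8 and 533 CPM) and in 26 X2 cells (36.1%, interval 25.1 to 48.3%, with a median of 0 and a maximum of 312 CPM). Its X2 tube, at 29.5 CPM, lay just under the X1 tubes at 45.1 and 30.9 CPM, a log2 ratio of -0.35 where the single cells gave -2.23, so for this transcript the tubes did not show the difference seen between single cells.

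Set against the X2 tube, the 111 fell into 2 classes. The rule did not use the tubes. For 95 of them the mean of single cells stood near the tube: the log2 ratio of X1 cells to X1 tubes had a median of -0.03 and a range of -1.42 to 1.9, and that of X2 cells to the X2 tube a median of 0.14 and a range of -1.70 to 2.6. Across these 95 transcripts, log2 levels of cells and tubes correlated at r = 0.98 for X1 and 0.96 for X2, a description across transcripts whose range is stretched by the 3 leading ones. The remaining 16 were over 16-fold higher in single X2 cells than in the X2 tube, as were 1.07% of all 15918 transcripts at 1 CPM or more in either. The smallest X2 log2 ratio of the 16 was 6.36 and the median 8.69, so no member lay between 2.6 and 6.4. For X1 cells against X1 tubes the log2 ratios of the 16 ran from 0.26 to 4.76. These overlapped the ratios of the other 95, so the X1 tubes did not separate the classes. The class was set apart after these values were seen, and the same 16 transcripts came out with TMM scaling, with the median over cells, with summed reads, with the 3 leading transcripts taken out of the total, and with the 52 deepest X2 cells alone.

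**Figure D4:**
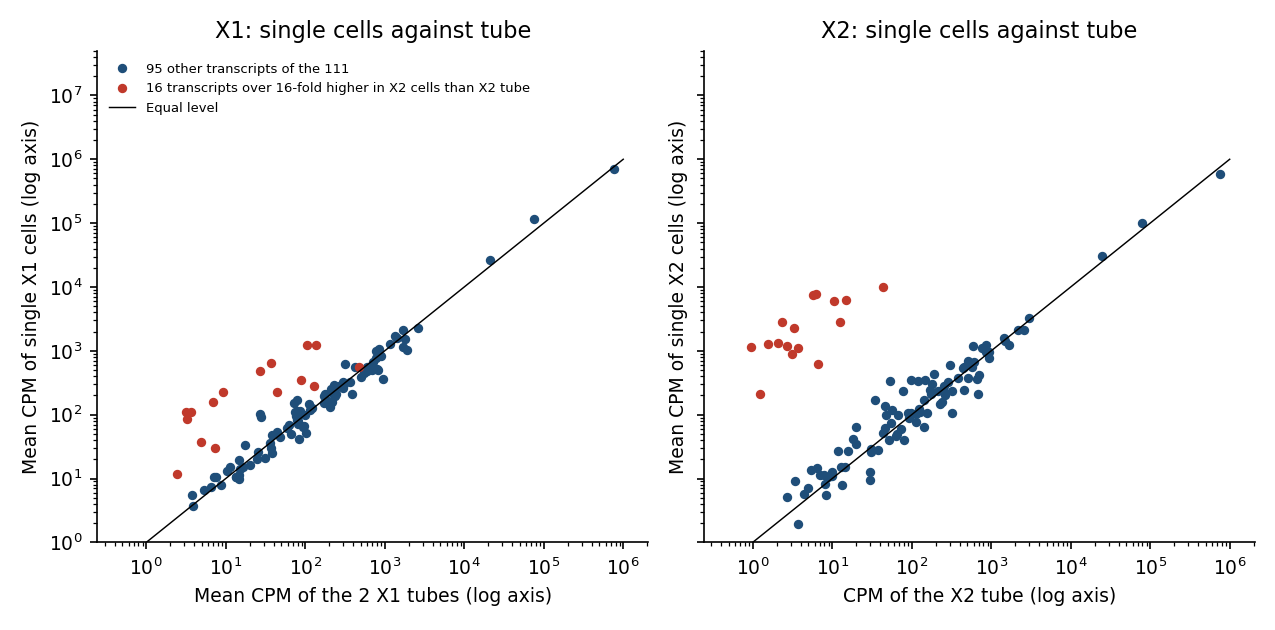
The mean CPM over single cells is plotted against the CPM of the tubes of 200 cells for X1 (left, mean of 2 tubes) and X2 (right, 1 tube), on log axes, with a line of equal level. The 95 blue transcripts follow the line in both gates, and the 16 red ones lie above it, by a median log2 ratio of 3.35 in X1 and 8.69 in X2. In X1 the red ones, at log2 ratios of 0.26 to 4.76, overlap the blue ones.

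The 16 transcripts ranged from 12.0 to 1248 CPM as the mean of X1 cells (median 228) and from 214 to 9979 CPM as the mean of X2 cells (median 1813). In the tubes they ranged from 0.109 to 248, 2.4 to 830 and 0.956 to 43.8 CPM, with medians of 10.4, 7.46 and 3.53 CPM. All 16 had a higher mean in X2 cells than in X1 cells, by log2 ratios of 2.3 to 4.9, whereas 13 of them were lower in the X2 tube than the mean of the X1 tubes and 10 were lower than each X1 tube. The other 3 were higher in the X2 tube than that mean, as in single cells. The class was chosen for high X2 cells against a low X2 tube, which by itself favours both of these directions, so these counts are a description.

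SmedASXL_071005 and SmedASXL_068163 had the largest X2 to X1 ratios of single cells, and both are listed without a gene name in the study's supplement. SmedASXL_071005 had 0.893, 29.4 and 5780 CPM as minimum, median and maximum of X1 cells, and 532, 2885 and 45490 CPM in X2 cells. The X1 and X2 tubes held 45.9, 213 and 15.1 CPM. Every X2 cell was above the X2 tube, and the X2 tube lay under the X1 median, while the gates overlapped as single cells.

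SmedASXL_068163 was read in 92 X1 cells, at 0, 8.00 and 377 CPM, and in all 72 X2 cells, at 17.6, 317 and 13132 CPM. Its tubes held 2.9, 11.7 and 3.1 CPM (exact Poisson 95% intervals 2.2 to 3.8, 9.8 to 14.0 and 2.2 to 4.2). Here too the lowest X2 cell was above the X2 tube, and X1 and X2 cells overlapped. The log2 ratio of X2 to X1 was 4.85 in single cells and -1.02 in the tubes.

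SmedASXL_049762 and SmedASXL_048528 had the lowest ratios of X2 tube to X1 tubes. SmedASXL_049762 had 14.3, 82.6 and 6642 CPM in X1 cells and 109, 646 and 6250 CPM in X2 cells, with 84.1, 5.06 and 0.956 CPM in the tubes. SmedASXL_048528 had 69.3, 215 and 5965 CPM in X1 cells and 193, 907 and 16492 CPM in X2 cells, with 5.05, 175 and 3.31 CPM in the tubes. For both, one X1 tube was more than 10-fold above the other, the opposite one in each case, and the X2 tube was under both.

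For X2 the difference between cells and tube was visible in reads as well as in shares, and for X1 in shares only. Each tube held 200 cells and had more assigned reads than nearly every cell. The 16 transcripts together had a median of 8312 reads in a single X1 cell, fewer than the 14912 and 14470 in the X1 tubes. In a single X2 cell the 16 had a median of 71656 reads, against 1659 in the X2 tube. As a share of assigned reads they took 0.073 to 9.56% in X1 cells (median 0.260%), 0.510 to 29.4% in X2 cells (median 2.7%), and 0.081%, 0.136% and 0.012% in the tubes. The gates overlapped, with 21 X1 cells above the lowest X2 cell, and every single cell was above the X2 tube. More than 5% was reached in 20 X2 cells and 2 X1 cells.

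The 16 moved together over X2 cells, and less evenly over X1 cells, where some pairs were nearly unrelated. For log2 levels, the median pairwise correlation among them was 0.60 over 96 X1 cells (0.06 to 0.97) and 0.82 over 72 X2 cells (0.59 to 0.98), against 0.08 and 0.15 among the other 95. Their share moved with the unassigned reads of a cell, at r = 0.94 over X2 cells and 0.45 over X1 cells for the log2 share, and, as a share of all reads, at 0.71 and 0.33. In X2 cells the log2 share also moved with the log2 number of assigned reads, at r = -0.72, and in X1 cells at -0.12. The unassigned reads were a median of 40.3% in X2 cells and 17.4% in X1 cells. These correlations are over cells of 1 sample that share amplification and sequencing, and the part of unassigned reads, depth or amplification in the levels of the 16 was not tested. Within ranges of 24 cell numbers, which name cells and are not known to be batches, the median share was 0.185 to 0.519% in X1 cells and 2.2 to 3.2% in X2 cells. Such ranges are not replicates, and the class was chosen for high X2 cells, so these values are a description.

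**Figure D5:**
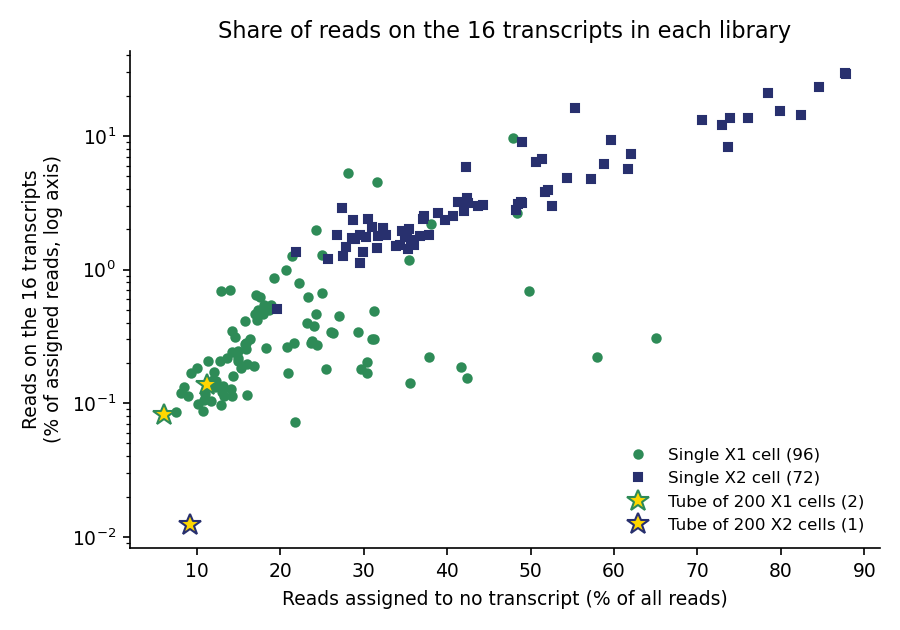
The share of assigned reads on the 16 transcripts (percent, log axis) is plotted against the share of reads assigned to no transcript (percent of all reads) for every single X1 cell (circles), single X2 cell (squares) and tube of 200 cells (stars). X2 cells lie along a rising band up to 29.4%, X1 cells spread lower, and the X2 tube lies lowest of all, at 0.012%.

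Spread over X1 cells was wider for the 16 than for most of the other 95, but not than for transcripts at large. All 16 had a CV over 1 in X1 cells, as did 51 of the other 95. A CV over 2 was found for 11 of the 16 and for 3 of the other 95. Of all 14654 transcripts at 1 CPM or more, 99.7% had a CV over 1, and their median CV was 4.52, against 2.3 for the 16. Since a zero in a cell raises the CV, the contrast with all transcripts is partly fixed by the choice of the members. Going from X1 to X2 cells, the CV was higher for 90 of the 95 but for 2 of the 16. No share over all transcripts is given for this count. The median CV of all transcripts at 1 CPM or more in the gate was 4.52 in X1 and 7.13 in X2 cells. Members were chosen for few zeros in X1 cells, and the 16 for high X2 cells, so both directions are partly fixed by these choices.

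Whether the other 95 were lower in X2 than in X1 cells depended on the scale. By mean CPM, 17 of the 111 were more than 2-fold higher in X2 cells, beside 21.5% of 17644 transcripts at 1 CPM or more, and 7 were more than 2-fold lower, beside 45.1%. The 17 were the 16 of the class and 1 other, and the median log2 ratio of the 95 was 0.03, against -0.71 over all transcripts. With the authors' size factors, 15 of the 111 were higher and 89 lower, and all 95 lay below 0, with a median of -1.72 beside -1.40 over all transcripts. TMM scaling gave 17 higher and 16 lower, with a median log2 ratio of -0.22 over the 111 beside -0.77 over all transcripts. The share of all transcripts called is given for CPM only, so the counts on other scales are no result about the 111. The rule chose members on X1 cells, which by itself favours lower values in X2 cells.

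The size factors rest on these same transcripts. A size factor is the median ratio of a cell to the geometric mean of all cells over entries read in every cell, which here are the entry of unassigned reads and 29 transcripts. Of the 29, 27 are members, and 13 were over 16-fold higher in single X2 cells than in the X2 tube, 12 members and Smed-IMTP-1. The mean size factor was 0.926 in X1 cells and 2.06 in X2 cells, a ratio of 2.2 of X2 to X1. Without the 13, over the 17 entries left (the unassigned one among them), it was 1.7 and 1.3, a ratio of 0.760, and then 26 members were more than 2-fold higher and 11 lower in X2 cells. The median log2 ratio was then 0.09 over the 111 beside -0.77 over all transcripts. The 16 had a higher level in X2 than in X1 cells under every scale tried. Their median log2 ratio ran from 1.8 with the authors' size factors to 5.21 with those made without the 13. The class was chosen for high X2 cells, which by itself favours this direction, and the last factors leave out 12 of its members. These values are therefore a description.

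Between tubes, the X1 tubes differed from each other in many of the 111, and the count between gates depended on the X1 tube used. The X2 tube was more than 2-fold above the mean of the X1 tubes for 1 of the 111, beside 7.17% of 16446 transcripts, and more than 2-fold below for 20, beside 16.7%, and 10 of the 20 belonged to the class of 16. X1 tube 2 was more than 2-fold above X1 tube 1 for 19, beside 8.58%, and below for 29, beside 21.0%. The first pair of counts sets 1 tube against a mean of 2, so it is not of the same form as the second. With 2 tubes against 1 no test was made. Against X1 tube 2 alone, 2 members were higher and 13 lower, and against X1 tube 1 alone, 12 and 37. No share over all transcripts is given for either X1 tube alone. These counts show only that the result depends on the tube used.

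SmedASXL_078007 and SmedASXL_076122 had the highest ratios of X2 tube to X1 tubes. SmedASXL_078007 had 2.93, 31.4 and 76.1 CPM in X1 cells and 18.4, 55.0 and 277 CPM in X2 cells, with 3.47, 31.7 and 46.1 CPM in the tubes (log2 ratio 1.3). SmedASXL_076122 had 2.5, 93.4 and 225 CPM in X1 cells and 0, 105 and 406 CPM in X2 cells, with 4.89, 51.0 and 56.6 CPM in the tubes (0.99). In both, X1 tube 1 was low, X1 tube 2 and the X2 tube were close, and the single cells of the gates overlapped. SmedASXL_077889, named after its values were seen, showed the widest gap between the X1 tubes, with 11.3 and 769 CPM beside 505 CPM in the X2 tube, and in X1 cells it spread from 2.9 to 812 CPM with a median of 146.

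Among the 95, most pairs were nearly unrelated from cell to cell, and a few pairs moved as 1. SmedASXL_059497 and SmedASXL_066289 correlated at r = 0.97 over X1 cells and 0.92 over X2 cells, and SmedASXL_076122 and SmedASXL_077012 at 0.97 and 0.94. These pairs were picked for the height of r, and reads shared between similar transcripts were not examined. SmedASXL_076122 and SmedASXL_077012 also had like levels in every kind of library, with means of 92.0 and 102 CPM in X1 cells and 120 and 136 CPM in X2 cells, and with 4.89 and 7.76, 51.0 and 46.5, and 56.6 and 46.0 CPM in the 3 tubes.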

How the data were processed

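The submitters' notes name Bowtie2 2.2.4, bcl2fastq 1.8.3 and DESeq2; the paper states 15 bp of 3′ trimming and alignment to the SmedASXL transcriptome. The authors deposited raw counts of reads per transcript for 171 libraries, not normalized, with 1 entry for unassigned reads. They also deposited a normalized signal table of the 168 single cells, made by dividing counts by size factors and Winsorizing the 2 most extreme cells, from which only the row order and each transcript's mean were used here. Recomputed size factors gave its values within a relative difference of 1.54e-07.

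CPM was computed over assigned reads, the unassigned entry (7.51 to 87.8% of a single cell's reads) being left out. Ratios are log2 of mean CPM plus 1, called at more than 2-fold, among transcripts at 1 CPM or more. Cells were thinned to 100000 assigned reads (seed 1), which left out none. TMM factors came from edgeR 4.0.16 under R 4.3.3 (tables read with the package data.table, version 1.17.8) and all else from pandas 2.3.3, numpy 2.4.6, scipy 1.17.1 and matplotlib 3.10.9 under Python 3.11.15. Scripts were tested on simulated data. Gene names were taken from the study's supplement and code, and from its list of markers where listed values over 49 cells picked out a single transcript (22 of 28 names).

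Named transcripts are the 2 members at each end of the X2 to X1 ratio of cells, of the CV in X1 cells and of the tube ratio, the 2 with most CPM, the 2 read in the fewest X2 cells, and those the supplement lists without a name. Any other transcript named here, and the background for the 1000 most variable transcripts (a mean over 8 normalized counts, the study's minimum), was chosen after the values were seen. The members, lists and rules were chosen with earlier results of these data known. Alternatives covered the read minimum, thinning, the number of cells, deep cells only, scaling, pseudocount, filter, Winsorizing and leaving out 1 X1 tube. No column was left unmapped, and no 2 columns were identical.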

Additional observations from a re-analysis of the deposited data

How the results depend on the processing

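Of 61 alternatives over 16 results, 27 changed the value little and 34 moved it. The member count of 111 was 62 with 5 reads as minimum, 40 after thinning, 70 with 5 counts divided by size factor, 38 with all 96 cells, 254 with 80 cells and 114 in cells of 2 M assigned reads or more. The median share of X2 cells was 70.8% with 5 reads and 61.1% after thinning, and members at 90% or more of X2 cells were then 42 and 32. Members more than 2-fold higher in X2 cells were 26 with size factors made without the 13 transcripts read in every cell and over 16-fold higher in X2 cells than in the X2 tube, and 1 when the class of 16 was left out. Members more than 2-fold lower were 89 with the authors' size factors, 89 with size factors without unassigned reads, 16 with TMM, 64 with the median over cells, 27 without the 3 leading transcripts in the total and 11 with size factors made without the 13, and the median log2 ratio of 0.15 was -1.64, -1.62, -0.22, -1.29 and -0.59 under the first 5 of these. The 1 member higher in the X2 tube became 2 with TMM and 2 with a pseudocount of 0.1. Leaving out 1 X1 tube gave 2 to 12 higher and 13 to 37 lower. For these member counts under other settings no share over all transcripts is given. As a percent of all reads, members took a median of 73.0% in X1 and 50.2% in X2 cells. With no filter on low values, 5.58% and 11.7% of all transcripts were called higher and lower between cells and 1.7% and 4.05% between tubes. The CV had a median of 0.99 to 1.2 throughout. Causes were not tested beyond what each setting changes by construction.

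No paired analysis was possible because the cell numbers only name cells and no test was made. Each gate is 1 sample without replicates, the X2 tube is single, PCR reads carry no molecular identifiers, and gene names and lengths were not used, which limits all statements to these libraries.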

Other observations

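Transcripts outside the 111 shared some of their features. Of the 62 transcripts read in all 72 X2 cells, 39 were among the 111. In all, 170 transcripts were over 16-fold higher in single X2 cells than in the X2 tube, and 3 of the 77 read in 85 to 89 X1 cells, 2 of the 66 read in 80 to 84 and 8 of the 479 read in 60 to 79 were among them, beside 12 of the 38 members read in all 96 X1 cells, 3 of 39 and 1 of 34 in the tiers under it.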
